A study of Zea mays with 64 samples.

Results

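Mu transposon insertions were compared between the endosperm of 4 maize plants and the endosperm of their own progeny, 1 generation later. The comparison used 34 of the 64 libraries of the series: 4 father libraries and 30 progeny endosperm libraries, taken by the sample titles. The fathers were the Mu-active plants ND66-2, ND67-51, ND67-40 and ND67-35. In that order they fathered the families NE71 (8 plants), NE72 (7 plants), NE73 (7 plants) and NE74 (8 plants). All plants were of the inbred W22, and no other allele or treatment is named. Each father kernel and each progeny kernel came from the same kind of cross, pollen of a Mu-active W22 plant put on an ear of a Mu-inactive W22 plant, and the progeny crosses used bulk pollen. Each father is 1 library from 1 kernel, so the spread between kernels of the fathers' generation within a family was not measured. The remaining 30 libraries were leaf of the same progeny plants and serve only as a second tissue.

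Mu elements are DNA transposons of maize that cut themselves out and insert elsewhere, often near genes, and each insertion duplicates a short stretch of target DNA at its ends. Insertions made in the cell lineage that leads to the sperm can pass to progeny through pollen. Insertions made in other cells stay in the cells that descend from one event. Endosperm is the storage tissue of the kernel, with 2 maternal and 1 paternal genome set per cell, and it leaves no descendants. A site in a father's endosperm therefore reaches the progeny only if it was also in the embryo of that kernel, from which the pollen derives.

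A site is a position in the deposited count table, and its level is its count per 1000000 counts of the library (CPM). Levels are thus shares of a library, and a larger share of one kind of site leaves less for the others. Sites at 1000 or more CPM are called high-level, and sites under 100 CPM low-level. Sites that the authors' deposited table lists for the Mu-inactive parent, 29 in number, are given separately, and the other high-level sites of a father are called paternal. Total counts were 273277 in ND66-2, 610687 in ND67-51, 393329 in ND67-40 and 606214 in ND67-35, against 5457 to 105320 in the progeny. Every father library was thus deeper than every progeny library. For this reason expected values were also computed with each library sampled without replacement to 5457 counts, where 6 counts make 1000 CPM. The labels name no sequencing batch, so a batch effect and the generation cannot be told apart. No sequence around a site is given, because no genome of the files' build was used here. Positions are as in the deposited table, whose build is not given in the sources used here.

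The first question was whether a progeny endosperm holds more or fewer high-level sites than that of its father. All progeny of NE72 held more than their father. In the other families the father lay inside the range of its progeny, above their mean in NE73 and below it in NE71 and NE74. ND66-2 had 59 high-level sites, against 66.5 ± 6.68 in NE71 progeny (SD, n = 8, range 57 to 75). ND67-51 had 92, against 122 ± 4.55 in NE72 progeny (SD, n = 7, range 116 to 129), and it was below all 7. ND67-40 had 80, against 72.1 ± 8.67 in NE73 progeny (SD, n = 7, range 59 to 81), of which 6 lay below it and 1 above. ND67-35 had 101, against 112 ± 13.3 in NE74 progeny (SD, n = 8, range 96 to 134), of which 5 lay above it. Averaged over the 4 families, fathers minus progeny was -10.2 ± 15.6 sites (SD over families), negative in 3 families. Exchanging which library of a family is the father, over all 5184 choices, gave a two-sided exact permutation p of 0.0619, or 0.132 after Benjamini-Hochberg adjustment over 9 such comparisons of the generations. The mean difference over families thus did not pass the test, and ND67-51 alone lay outside the range of its progeny.

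Sampling to a common depth changed these counts little. At the common depth fathers had 58.8, 91.8, 80.5 and 101 expected high-level sites in the order NE71 to NE74, and progeny averaged 66.4, 122, 72.2 and 111 in the same order. The mean difference was -9.98 sites (exact permutation p = 0.0534, adjusted p = 0.132). It rested unevenly on the families: with all counts it was -3.63 sites without ND67-51 and its family (exact permutation adjusted p = 0.613) and -16.25 sites without ND67-40 and its family (exact permutation adjusted p = 0.0833).

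**Figure D1:**
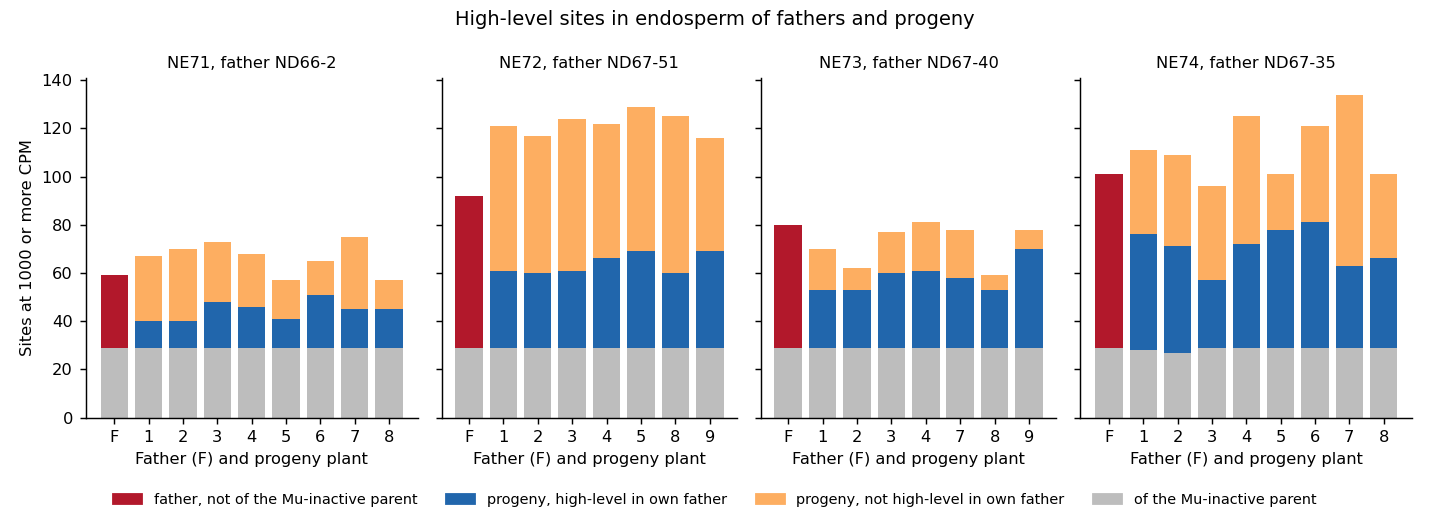
High-level sites in each endosperm library (vertical axis, number of sites at 1000 or more CPM), one panel per family, the father (F) at the left and the progeny plants by number to its right. Grey is the number of sites listed for the Mu-inactive parent, red the paternal sites of the father, blue the progeny sites that are also high-level in the own father and orange those that are not. The grey part is 27 to 29 sites in every library, and the orange part ranges from 6 sites in NE73 to 71 in NE74.

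The totals hid a large turnover of sites. All 29 sites of the Mu-inactive parent were high-level in all 4 fathers, and each progeny library held 27 to 29 of them, so they contributed almost nothing to the differences. Beyond these, ND66-2 had 30 paternal sites, ND67-51 had 63, ND67-40 had 51 and ND67-35 had 72. Of them, an average plant lacked 14.5 ± 3.96 in NE71 (SD, n = 8), 28.3 ± 4.15 in NE72 (n = 7), 21.7 ± 6.21 in NE73 plants (n = 7) and 30.1 ± 8.24 in NE74 (n = 8). In exchange, an average plant had 22 ± 7.19 high-level sites in NE71 that were not high-level in its father, 58.3 ± 5.88 in NE72, 13.9 ± 5.98 in NE73 plants and 41.75 ± 14.4 in NE74 (same n). This second number varied most between families. It spanned 6 to 20 sites per plant in NE73 and 47 to 65 in NE72, the families with the lowest and highest mean, and these ranges do not overlap. NE71 spanned 12 to 30, overlapping NE73, and NE74 spanned 23 to 71, overlapping NE72. Set against its own father, an average plant of NE72 had 30 sites more, one of NE74 11.25 more and one of NE71 7.5 more, whereas the balance in NE73 was -7.86. Over all NE74 plants together, 16 distinct sites not high-level in the father were high-level in the father of another family. Plant 7 of NE74 had the highest number of sites not high-level in its father, 71. The high-level sites of that plant numbered 134 in its endosperm but 98 in its leaf, a larger gap than in any other NE74 plant. Without that plant, NE74 averaged 37.6 ± 8.87 sites not high-level in the father (SD, n = 7) and 29 paternal sites lacking.

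The labels of fathers and families were checked on the same sites. Of the progeny high-level sites outside the Mu-inactive parent's, 42.3% were high-level in the own father in NE71, 37.4% in NE72, 68.6% in NE73 plants and 50.8% in NE74. The other 3 fathers averaged 4.34%, 4.30%, 20.5% and 9.60% for those families. The mean excess of the own father was 40.1 percentage points, the highest of all 24 ways to assign 4 fathers to 4 families (exact permutation p = 0.0417, the smallest possible). The higher share of other fathers in NE73 went with sites that fathers had in common: ND67-40 shared 28 of its 51 paternal sites with ND67-35, which is 54.9% of the sites of ND67-40 and 38.9% of those of ND67-35.

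An insertion carried on 1 of a pair of chromosomes is expected in 50% of progeny by Mendel's rule. The share of paternal sites that was high-level in a progeny endosperm was 51.7% ± 13.2 in NE71 (SD, n = 8), 55.1% ± 6.59 in NE72 (n = 7), 57.4% ± 12.2 in NE73 plants (n = 7) and 58.2% ± 11.4 in NE74 (n = 8). The mean over families was 55.6% ± 2.92 (SD, n = 4 families), above 50% in 4 of 4 families (exact sign-flip permutation, in which 4 families cannot reach 0.05). These shares include 1 paternal site that was high-level in all 34 endosperm libraries and counted in 64 of 64 libraries, chr9:11958559-11958567, singled out after its values were seen. It was at 16105, 6131, 7597 and 6259 CPM in the fathers of NE71 to NE74, against 2113, 4835 and 8418 CPM in progeny (lowest, median, highest). Without it the share was 50% ± 13.7 in NE71 and 54.4% to 57.6% in the others, so 3 of 4 families were above 50%, with a mean of 54.6% ± 3.36 (SD, n = 4 families). The share in NE71 depends on the limit of 1000 CPM. The 30 paternal sites of ND66-2 include 4 at 1010 to 1069 CPM that no plant carried, and these lower it. With all paternal sites, the mean excess over 50% was 4.18 percentage points at a limit of 500 CPM and 6.80 at 2000 CPM. Single plants ranged from 36.7% to 80.4%. Nearby sites on one chromosome tend to pass on together, so the sites of a plant are not independent draws.

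**Figure D2:**
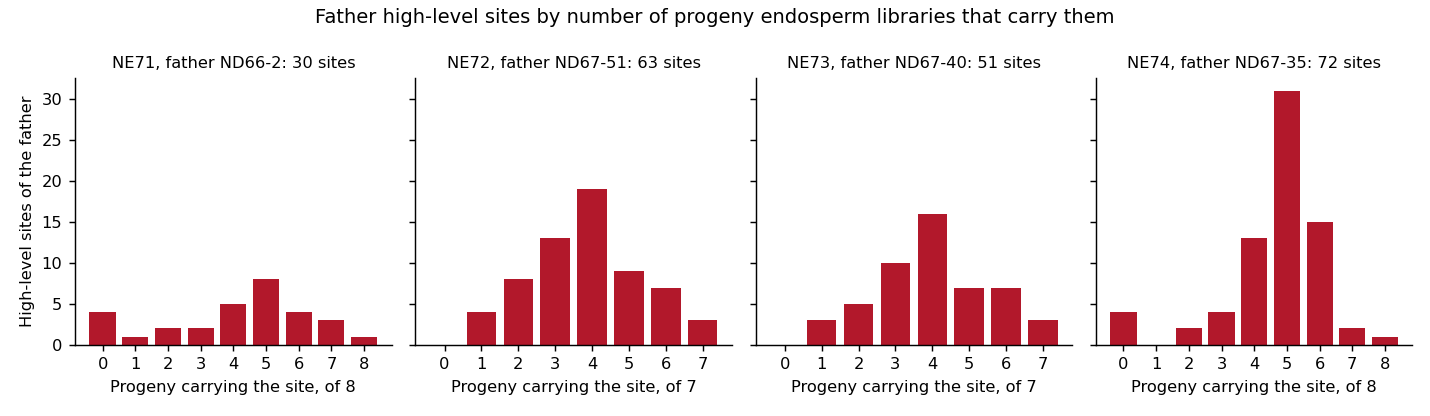
Number of paternal high-level sites (vertical axis) by how many progeny endosperm libraries of the family carry them at 1000 or more CPM (horizontal axis), one panel per father. Sites of ND67-35 peak at 5 of 8 plants with 31 sites, and 4 sites of ND66-2 and 4 of ND67-35 are in no plant.

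Most paternal sites were carried by several plants, and few by all or none. Every paternal site of ND67-51 and of ND67-40 was high-level in at least 1 of 7 plants, with 4 carriers the most frequent number (19 of 63 sites and 16 of 51 sites). ND67-35 had 31 of 72 sites in 5 of 8 plants. It also had 4 sites in no plant, all of them on chromosome 7, which were singled out after their values were seen. They began at positions 923972, 25221853, 44742681 and 141317990 of that chromosome, at 5691, 8469, 8982 and 4846 CPM in the father. None of the 4 had a single count in the 8 endosperm or the 8 leaf libraries of NE74, although 3 of them were high-level in 2 other fathers. The other 3 paternal sites on chromosome 7 began at 166279096, 176807341 and 176964046 and were carried by 2, 4 and 4 of the 8 plants. ND66-2 likewise had 4 sites in no plant, but these lay just above the limit, the highest being chr3:3350330-3350338 with 292 counts or 1069 CPM.

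The high-level progeny sites that were not high-level in the father were mostly private to 1 plant. There were 154 distinct such sites in NE71, 346 in NE72, 80 in NE73 plants and 314 in NE74, of which 147, 305, 77 and 306 were in 1 plant only. NE72 stood apart with 41 sites in more than 1 plant, against 3 to 8 in the other families. These numbers include 3 positions that were high-level across families, described below, and in NE73 they are all 3 of the sites in more than 1 plant. The 3 positions had counts in every father, so they also add to the sites counted in the own father. Most had no count at all in the deep father library: 141 of 154, 303 of 346, 74 of 80 and 272 of 314. A count of 0 allows a level of up to 10.98 CPM in ND66-2, 4.91 CPM in ND67-51, 7.63 CPM in ND67-40 and 4.95 CPM in ND67-35 (3 counts of the total, counting error only). The share with any count in the own father was 8.44%, 12.4%, 7.5% and 13.4%, and in the other fathers it averaged 9.31%, 5.97%, 12.9% and 10.2% in the same order. These shares are from father libraries of unequal depth. With all fathers sampled to 273277 counts the expected share was 8.44%, 8.51%, 7.00% and 8.85% in the own father, and the other 3 fathers spanned 5.30% to 7.67%, 2.02% to 7.74%, 7.5% to 11.6% and 4.36% to 11.8%. No test was run on these shares.

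The level of these sites was close to that of inherited sites on average in NE71 and NE72. The median log2(CPM + 1) of sites not high-level in the father minus that of inherited sites of the same plant was -0.05 ± 0.17 in NE71, -0.11 ± 0.11 in NE72, -0.47 ± 0.47 in NE73 plants and -0.25 ± 0.46 in NE74 (SD over plants). The value of NE74 rested on plant 7, at -1.37, and without it was -0.09 ± 0.11 (n = 7). No test was run on this difference. The sites not high-level in the father include the same 3 positions that were high-level across families. In NE73 they made up 3 of the 6 such sites of plant 8, at -1.30, and 2 of the 8 of plant 9, at -0.94. In plant 2 of NE73 they made up 3 of the 9, at -0.08. The difference without these positions was not computed.

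Ranked by progeny mean, which favours sites in several plants, the first site among those with 0 counts in the father was in more than 1 plant in 3 families. In NE71 it was chr5:218579226-218579234, at 8573, 7783 and 9978 CPM in plants 1, 3 and 5 and at 0 counts in the other 5. In NE72 it was chr3:240698698-240698706, at 6924, 5014 and 5910 CPM in plants 2, 3 and 4 and at 0 counts in the other 4. In NE74 it was chr7:154614037-154614045, at 6976 and 4858 CPM in plants 1 and 2 and at 0 counts in the other 6. In NE73 the site was chr5:878129-878137, at 14732 CPM in plant 7 alone. Leaf libraries of the same families had 5154, 8206, 5266 and 6374 counts at these sites in the order given, so the sites were counted in both tissues of the progeny generation.

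A group of 3 positions was high-level across families and was singled out after its values were seen. Each was high-level in 21 or more of the 30 progeny endosperm libraries and in no father, and none was in the authors' deposited table. The position chr1:18957402-18957410 was at 790, 278, 773 and 178 CPM in the fathers of NE71 to NE74, against a lowest value of 179, a median of 2283 and a highest value of 9894 CPM in the progeny. At chr8:160333759-160333767 fathers had 322, 429, 325 and 287 CPM, against 0, 2132 and 4032 CPM in progeny (lowest, median, highest). At chr8:44857168-44858977, an entry of 1810 bp, fathers had 490, 288, 753 and 132 CPM, against 134, 2848 and 9163 CPM in progeny. Each exceeded the own father in 29 of 30 plants, which the choice of the positions favours. The 2 libraries next to the fathers in sample order held the fewest of the 3 positions at high level. These were 1 in NE71 plant 5 and 0 in NE74 plant 2, and the cause was not tested. Progeny leaf had medians of 570, 952 and 1217 CPM at these 3 positions in the order given, between the fathers' values and the progeny endosperm in the last 2. Because the 3 positions were picked as high-level in progeny and in no father, leaving them out can only reduce the progeny excess. The difference in high-level sites was then -7.64, and no test can be read from it.

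The clearest difference between the generations was in the level of the Mu-inactive parent's sites relative to the inherited ones. It was computed for each library as the median log2(CPM + 1) of the sites listed for the Mu-inactive parent minus that of the sites listed for the father and for the plant itself. It was 0.13 in ND66-2, 0.95 in ND67-51, 0.94 in ND67-40 and 0.58 in ND67-35, against 1.61 ± 0.17 in NE71 progeny (SD, n = 8), 1.65 ± 0.14 in NE72 (n = 7), 1.47 ± 0.13 in NE73 plants (n = 7) and 1.53 ± 0.13 in NE74 (n = 8). The lowest progeny value, 1.25, was above the highest father value. All 30 progeny were above their own father. The mean difference, fathers minus progeny, was -0.92 ± 0.41 (SD over families), with an exact permutation p of 0.000193, the smallest the 5184 choices can give, and an adjusted p of 0.00174. The value for each father used all sites listed for it, and that for a plant only the sites it inherited. With the father's median taken over the sites that each plant inherited, the difference was also -0.92, with the father lower in 30 of 30 pairs (-1.76 to -0.30).

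**Figure D3:**
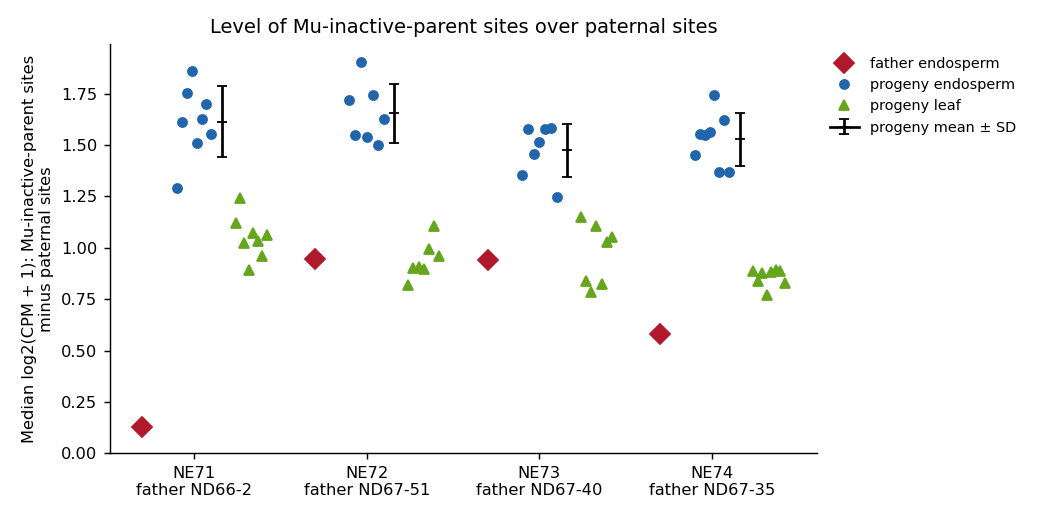
Median log2(CPM + 1) of sites listed for the Mu-inactive parent minus that of paternal sites (vertical axis), per library and family. Red diamonds are fathers, blue circles progeny endosperm with mean and SD in black, and green triangles progeny leaf. The 4 fathers lie at 0.13 to 0.95 and the 30 progeny endosperm libraries at 1.25 to 1.90.

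A site on all 3 genome sets of an endosperm cell would hold 1.58 more on the log2 scale than a site on 1 set, and in leaf, with 2 sets, the same difference would be 1. Progeny endosperm averaged 1.57 ± 0.15 and progeny leaf 0.95 ± 0.12 (SD, n = 30 each), whereas the 4 father endosperms averaged 0.65. Set against leaf, the fathers' difference was -0.31 (exact permutation p = 0.00714). The adjusted p was 0.0642 with the other comparisons of the generations kept at their progeny endosperm values, not adjusted over the leaf comparisons. Whether copy number sets these levels was not tested.

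The terms of the ratio contributed unevenly by family, and as shares of one library they are not independent of each other. Among paternal sites with at least 1 carrier, the father's level minus the mean log2 level of its carriers had a median of 1.10 in NE71, 0.54 in NE72, 0.07 in NE73 plants and 0.49 in NE74. Sites higher in the father than the carrier mean numbered 25 of 26, 54 of 63, 32 of 51 and 54 of 68. Sites of the Mu-inactive parent went the other way, with medians of -0.45, -0.05, -0.27 and -0.48. The shift of paternal sites was thus smallest in NE73, and that of the Mu-inactive parent's sites was smallest in NE72. Across paternal sites the level in the father and that in its carriers followed each other, with Pearson correlations of 0.66, 0.67, 0.60 and 0.56 over 26, 63, 51 and 68 sites, a description over sites that share their libraries.

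The highest paternal site of each father is given as an example; choosing the highest favours a father above its carriers, so these values do not measure the shift. In ND66-2 chr6:90428447-90428455 was at 17989 CPM, against 6030 to 10568 CPM in the 7 progeny that carried it and 0 counts in plant 8. In ND67-51 chr2:29436395-29436403 was at 10018 CPM, against 4687 to 7790 CPM in 4 carriers. In ND67-35 chr9:132803333-132803341 was at 12072 CPM, against 5664 to 6646 CPM in 5 carriers. These 3 fathers were above every carrier. ND67-40 was not: its site chr7:176807341-176807349 was at 12127 CPM, inside the 10044 to 13846 CPM of its 5 carriers. Every plant without the site had 0 counts at it. The sites with the highest level in each father were all of the Mu-inactive parent, and each father lay inside the range of its progeny except ND67-40. In ND66-2 the site chr2:142959280-142961386 was at 27994 CPM, tied with chr9:149235004-149236775, against 26843, 28586 and 42514 CPM in NE71 progeny (lowest, median, highest). The same chr2 site led in ND67-40, at 31571.5 CPM against 26855, 29903 and 31426 CPM in NE73 progeny. In ND67-51 chr2:150736892-150738762 was at 23826 CPM, against 15236, 20503 and 31365 CPM in progeny. In ND67-35 chr9:149235004-149236775 was at 23411 CPM, against 15464, 20994 and 29418 CPM in progeny.

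The shift of the Mu-inactive parent's sites was uneven among the 29. In each of the 4 fathers, the same 4 sites were under 50% of the mean of that father's progeny, and they were singled out after their values were seen. At chr6:70998003-70998011 fathers had 1991, 2460, 3885 and 1495 CPM in the order NE71 to NE74, against progeny means of 15886, 10930, 16519 and 12102 CPM. At chr10:133146086-133147581 fathers had 4490, 3591, 6610 and 3194 CPM, against progeny means of 21399, 11995, 24645 and 12797 CPM. The sites chr5:120060250-120061749 and chr8:144608199-144608207 were also lower, with mean log2 differences of -1.93 and -1.46, against -2.42 and -1.91 at the sites on chromosomes 6 and 10. The father was below 29 or 30 of the 30 progeny at each. Progeny leaf had medians of 7730 to 9796 CPM at these sites. Without the 4 sites the ratio still differed by -0.85 (exact permutation adjusted p = 0.00174).

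The division of counts among kinds of site differed likewise. In fathers the sites of the Mu-inactive parent took 44.6%, 37.5%, 51.8% and 32.0% of all counts in the order NE71 to NE74, against 61.1% ± 3.22, 40.2% ± 3.04, 64.2% ± 5.29 and 44.1% ± 4.02 in progeny. The other high-level sites took 34.9%, 40.2%, 43.1% and 49.3% in fathers, against 24.4% ± 4.72, 39.7% ± 1.78, 32.8% ± 5.27 and 40.7% ± 4.34 in progeny. At the common depth the share of these other sites was 7.52 percentage points higher in fathers (exact permutation p = 0.00135, adjusted p = 0.00608), with fewer such sites in 3 of the 4 fathers than in their average progeny. With both kinds of site together the direction turned. High-level sites then took 79.5%, 77.8%, 95.0% and 81.2% of counts in fathers, against 85.5% ± 4.98, 79.9% ± 3.69, 97.0% ± 0.970 and 84.8% ± 2.42 in progeny. The mean difference of -3.41 percentage points, negative in 4 of 4 families, did not pass the test (exact permutation p = 0.0683, adjusted p = 0.132).

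**Figure D4:**
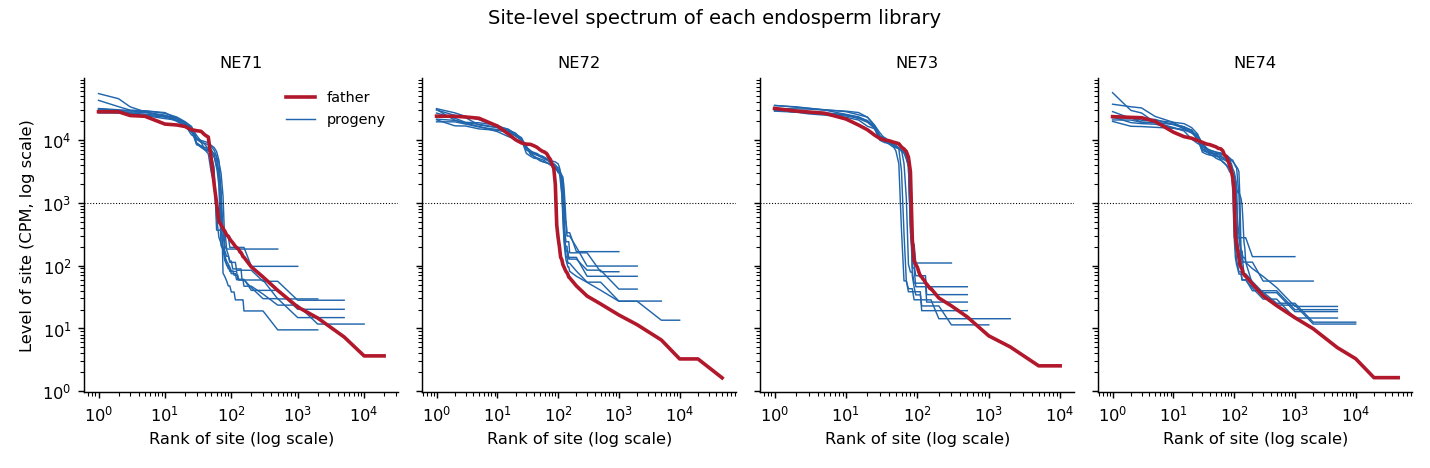
Level of each site (vertical axis, CPM, log scale) against its rank in the library (horizontal axis, log scale), one panel per family, fathers in red and progeny endosperm in blue, with 1000 CPM dotted. Each curve has a plateau of high-level sites and a steep drop below it, and the tail ends at the level of 1 count, which is lower in the deeper father libraries. The plateau of ND66-2 is flat, with 46 sites at 10000 or more CPM.

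The shape of the plateau was family-specific. ND66-2 had 46 sites at 10000 or more CPM, against 29.9 ± 2.53 in NE71 progeny, and 13 sites at 1000 to 10000 CPM, against 36.6 ± 8.14. Its paternal sites thus sat at nearly the level of the Mu-inactive parent's sites, with medians of 13.77 and 13.90 on the log2(CPM + 1) scale. ND67-51 had 20 sites at 10000 or more CPM, against 23.9 ± 1.86 in progeny. ND67-40 had 33, against 33.4 ± 3.51. ND67-35 had 23, against 25 ± 2.27. The effective number of sites, the inverse of the chance that 2 counts of a library fall on one site, was 75.8, 113, 68.4 and 117 in fathers, against 63.7 ± 7.01, 128 ± 17.5, 56.4 ± 6.88 and 103 ± 14.4 in progeny. The mean difference of 6.00 did not pass the test (exact permutation adjusted p = 0.493). ND66-2 also held 132 sites at 100 to 1000 CPM, against 31, 17 and 24 in ND67-51, ND67-40 and ND67-35.

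Low-count sites were counted last. With all counts, fathers had 27322, 77049, 10356 and 66058 sites with at least 1 count in the order NE71 to NE74, against 316 to 11848 in progeny at their lower depth. Sites with exactly 1 count made up 68.2%, 71.1%, 70.4% and 72.6% of the sites in fathers, against 87.3% ± 4.83 in progeny (SD, n = 30). At the common depth the gap narrowed to 1073, 1270, 339 and 1097 expected distinct sites in fathers, against 834 ± 260, 1167 ± 194, 232 ± 53.1 and 912 ± 122 in progeny. Fathers were above the progeny mean in 4 of 4 families, by 158 sites on average (exact permutation p = 0.0880, adjusted p = 0.132). The share of counts at sites with 1 count was 17.3%, 21.1%, 4.53% and 17.9% in fathers, against 13.7% ± 4.64, 18.4% ± 3.42, 2.87% ± 0.985 and 14.3% ± 2.09 in progeny. The mean difference was 2.88 percentage points (exact permutation p = 0.0777, adjusted p = 0.132). Neither mean difference passed the test. In both measures ND67-40 lay above all 7 of its progeny, and 26 of 30 progeny lay below their own father. In single-count share, plant 5 of NE71 (18.1%) and plant 2 of NE74 (18.5%) were the only ones of their families above their father. Their libraries stand next to the fathers in sample order, and the cause was not tested. Without the 25 sites spanning over 100 bp, of which 19 were of the Mu-inactive parent, the difference in distinct sites was 60.9 (exact permutation p = 0.352). The common depth was lower there, so this value and the 158 sites are at unlike depths.

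**Figure D5:**
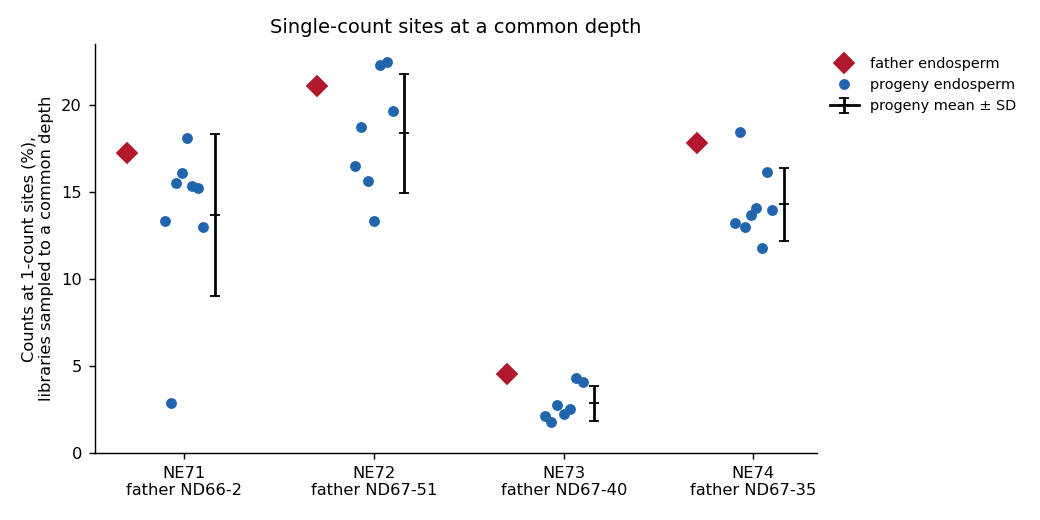
Expected share of counts at sites with exactly 1 count, in percent (vertical axis), with every endosperm library sampled to 5457 counts, per library and family. Red diamonds are fathers and blue circles progeny, with mean and SD in black. The father and all progeny of NE73 lie below 5%, and 1 library of NE71 lies at 2.91%.

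The low-count level was more alike within a family than between families in one respect: ND67-40 and all 7 of its progeny lay below 5% single-count share, whereas the other fathers lay above 17%. Of the other 23 progeny, 1 library of NE71 was at 2.91% and the rest were at 11.8% or more. With the 4 fathers sampled to the 273277 counts of ND66-2, they had 27322, 41992.5, 7962 and 35869 distinct sites, so ND67-40 was lowest at that depth as well. Low-level sites took 17.5%, 21.6%, 4.67% and 18.3% of all counts in fathers.

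The low-level sites of a father were seldom counted in its progeny. An average progeny library had a count at 0.868% of the own father's low-level sites in NE71, 0.625% in NE72, 0.267% in NE73 plants and 1.03% in NE74. At the low-level sites of the other 3 fathers the same libraries had a count at 0.809%, 0.650%, 0.177% and 1.04%. The mean difference, own minus other fathers, was 0.0282 percentage points (exact permutation over 24 assignments, p = 0.458). The own father had the higher share in 7 of 8 NE71 libraries and 6 of 7 NE73 libraries, but in 2 of 7 NE72 libraries and 3 of 8 NE74 libraries. Leaving out each father with its family moved the value between 0.00396 points without ND66-2 and 0.0879 points without ND67-40 (exact permutation p = 0.167, the smallest 3 families allow). In this measure father libraries were sampled to equal depth. The shallow progeny libraries limit it, since 3 counts correspond to 28.5 CPM in the deepest of them and to 549.8 CPM in the shallowest.

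Low-count entries had the 9 bp span of nearly all positions in the deposited table, in both generations. At the common depth 99.9% of 1-count sites in fathers and 99.9% in progeny had a start and end 8 bp apart, or 9 bp with both ends, the length of the Mu target duplication. The mean difference was -0.0210 percentage points (exact permutation adjusted p = 0.566). Over all libraries 1091491 of 1091553 positions had that span, so it does not separate low-count sites from others. Low-level counts at sites that were high-level in another family made up 0.188%, 0.175%, 0.180% and 0.142% of low-level counts in fathers, against 0.213% ± 0.239 in progeny (SD, n = 26). The mean difference was -0.0443 percentage points (exact permutation adjusted p = 0.613). Single-count sites within 1000 bp of a high-level site of the same library were 2.98%, 2.32%, 4.85% and 2.37% in fathers, against 2.99% ± 1.28, 3.49% ± 0.435, 1.94% ± 1.02 and 3.67% ± 0.716 in progeny, at all counts and with no test. Most single-count sites thus lay more than 1000 bp from any high-level site in both generations.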

How the data were processed

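MuSeq2 libraries were made by shearing genomic DNA to a mean of 1000 bp, ligating an adapter and amplifying DNA next to Mu ends by PCR, per the labels' protocols. The authors deposited raw counts for 1091553 insertion sites and a list of transmitted insertions. Bowtie2 is named in the submitters' processing notes, without a version, and the genome build and whether reads or molecules were counted are not given in the sources used here. The presence calls of 0 or 1 in the list have no stated criteria, per the file headers. No column of per-sample values was left unused.

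Families and fathers came from the sample titles. CPM, expected values under sampling without replacement (hypergeometric) and medians of log2(CPM + 1), with a pseudocount of 1, were computed with Python 3.11.15, numpy 2.4.6, pandas 2.3.3 and scipy 1.17.1. Libraries, not sites, were the replicates. The family was the block of the exact permutation test, and Benjamini-Hochberg adjustment covered 9 comparisons. Progeny kernels of a family share 1 father, so p-values measure the spread between kernels of these families. The functions were tested on simulated data. Sites were named by a fixed rule: in each family the site highest in the father, the highest one not of the Mu-inactive parent, the highest one under 1000 CPM in all progeny, and the one with the highest progeny mean at 0 counts in the father. Groups and sites were chosen with earlier results of these data known. No molecular identifier is named and PCR copies are not separate molecules, so limits cover counting error only. Alternatives changed the level limits, the depth, the pseudocount, the sites and the libraries used. In each alternative, adjustment replaced the p of that comparison only and kept the others at their main values.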

Additional observations from a re-analysis of the deposited data

Results flagged for a closer look

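In 76 sets of libraries examined for a value far from the rest, 6 were found, where chance alone gives about 3.8 (1 in 20). Plant 2 of NE71 gave 3 of them: its endosperm library had 96.9% of counts at high-level sites at the common depth, against 80.4% to 86.0% in the other 7, 232 distinct sites, against 792 to 1080, and 2.91% of counts at single-count sites, against 13.0% to 18.1%. Plant 1 of NE73 had 1.32% of its low-level counts at sites high-level in another family, against 0.0977% to 0.350% in the other 5 libraries with a value. Plant 5 of NE74 had 0% of counts at low-level sites, against 11.9% to 18.7% in the other 7. That library had 7207 counts, so 1 count already exceeds 100 CPM there. Plant 7 of NE74 had a log2 level of sites not high-level in its father minus inherited sites of -1.37, against -0.31 to 0.05 in the other 7.

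The share of counts at sites with 10000 or more CPM moved in opposite directions between families, with the father outside the range of all its progeny in 3 of them. It was 74.6% in ND66-2, against a progeny mean of 62.5%, a difference of 12.1 percentage points. It was 58.2% in ND67-40, against 69.6% in NE73 progeny, a difference of -11.4 points, and 32.7% in ND67-35, against 41.6% in NE74 progeny, a difference of -8.91 points. The difference between families was not tested.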

How the results depend on the processing

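Each father is 1 library, each comparison rests on 4 families, and the depth of fathers exceeds that of all progeny, so low-level sites of progeny are the least certain values. Permuting with the family as replicate block was the design. Without the replicate block, fathers minus progeny was -9.97 high-level sites (exact permutation p = 0.480) and -0.92 in the log2 level of the Mu-inactive parent's sites over paternal sites (p = 2.16e-05), and no call of the 9 comparisons of the generations changed. Under a sign-flip over 4 families the log2 difference of -0.92 had an adjusted exact p of 0.188, as did the -0.92 over the same paternal sites in father and plant, because 4 families cannot pass 0.05 in that test. Leaving out each father with its family in turn gave -1.05 to -0.73, with adjusted p of 0.0139 to 0.0156 by exact permutation. The number of high-level sites kept its direction and its side of 0.05 after adjustment in 16 of 16 alternatives, from -16.25 to -3.63 sites.

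With progeny leaf in place of progeny endosperm, several values turned: the share of counts at high-level sites was 8.90 percentage points higher in fathers (exact permutation, adjusted p = 0.0130), the effective number of sites -49.7 (0.00347), distinct sites -463 (0.0104) and the single-count share -7.91 points (0.0113). The share of 9 bp spans among single-count sites kept its direction and passed the test at -0.0495 points (0.00868). The log2 difference was -0.31 (exact permutation p = 0.00714, adjusted p = 0.0642). Each of these adjusted values took 1 leaf comparison, with the others kept at their progeny endosperm values. The cause was not tested. Leaving out sites spanning over 100 bp turned the effective number to -1.46. It also lowered the common depth, and the distinct-site difference at that depth was 60.9 (p = 0.352 by exact permutation). Leaving out the Mu-inactive parent's sites turned the share at high-level sites to 7.52 points. The share of low-level counts at sites of another family ranged from -0.0843 to 0.0106 points when fathers were left out in turn, positive without ND67-40. The own-father excess of shared sites was 37.0 to 42.8 points over 3 families, where 0.167 is the smallest p. Counting low-level sites under 10 CPM gave -0.00141 points for the own father's low-level sites. The same limit was not run for sites of another family, since only 1 progeny library had sites under 10 CPM. The position merge within 10 bp left 568012 sites and no other call.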

Other observations

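Paternal high-level sites of the 4 fathers were 171 distinct positions, of which 138 were in 1 father. ND67-51 shared 12 with ND67-40 and 11 with ND67-35, ND67-40 and ND67-35 shared 28, and ND66-2 shared 1 to 4 with each of the others. Counted per progeny leaf library, high-level sites averaged 120 ± 4.85 in NE72 (SD, n = 7), 108 ± 10.1 in NE74 (n = 8), 72 ± 8.31 in NE73 (n = 7) and 67.4 ± 6.63 in NE71 (n = 8).

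Paternal sites on some chromosomes were carried by few plants and on others by nearly all. In NE73 the 3 paternal sites on chromosome 5 were each in 1 or 2 of 7 plants, and the 6 on chromosome 9 in 6 or 7. In NE71 the 4 paternal sites on chromosome 6 were in 6 or 7 of 8 plants. Sites on one chromosome can be linked, and no test was run.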
